A study of Sus scrofa with 48 samples.

Results

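Transcripts of 41 genes that carry new proteins into, through and out of the endoplasmic reticulum were followed in the liver and fat of fed and fasted gilts. The set was drawn up by name: genes whose symbol in the array annotation begins with PDIA, SEC11, SEC13, SEC2, SEC3, SEC6, SSR, TMED or SRP (the last with a digit or R after it), together with CANX, CALR, ERP29, ATF4 and XBP1. The prolyl hydroxylase subunit P4HB belonged to the same list, but no probe set carried it as its only symbol and it was not analysed here. The 41 genes are among 6765 genes with a symbol of their own on the array, and each is represented by its brightest probe set. Of the 41, 24 had 1 probe set and 17 had more, 73 in all. The symbols of all 41 matched the RefSeq gene table of the pig by gene ID.

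A protein bound for secretion or for a membrane is recognised as it leaves the ribosome by the signal recognition particle, which docks on its receptor at the endoplasmic reticulum. The chain then passes through the SEC61 channel, loses its signal peptide to the signal peptidase, is glycosylated, and is folded by the lectin chaperones calnexin and calreticulin and by protein disulfide isomerases. Folded cargo leaves in vesicles coated by COPII, with p24 (TMED) proteins as cargo receptors, and ATF4 and XBP1 are transcription factors of the stress pathways that adjust this machinery. Liver exports most plasma proteins by this route, and fat exports adipokines and matrix proteins.

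RNA came from 24 Yorkshire gilts, 6 months old, of a line bred for low residual feed intake, which all groups share. The gilts were homozygous for D298 or for N298 in MC4R, a melanocortin receptor of the brain that curbs appetite, and had either been fed freely or fasted for 3 days. Liver and fat of each gilt were hybridised to 1 Affymetrix porcine array each, which gave 8 groups of 6 arrays. The fat depot is not given in the sources used here, and both tissues were whole, so that fewer cells of a type and less RNA per cell cannot be told apart. The deposited values are scaled signal intensities, with array medians of 122.1 to 148.7 (liver) and 158.7 to 191.8 (fat), and precision is limited by how many arrays there are. Marker genes bore the tissue labels out: the summed signal of 10 hepatocyte genes was 282600 to 420200 in liver against 4140 to 21700 in fat, and that of 6 adipocyte genes was 50090 to 79420 in fat against 1196 to 2539 in liver. Muscle marker signal in fat ran from 257 to 83510 between gilts.

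The 41 genes were brightly measured: 37 lay above the median gene. Averaged over the 41 genes, the groups had log2 signals of 11.03 to 11.13 (liver) and 10.69 to 10.78 (fat). The liver array of D298 fasted replicate 4 stood apart, with a mean over the 41 genes of 11.54 against 11.13 for its group. Results of the 41 genes that change without it are given both ways. Between gilts of a group the SD of a gene's log2 signal had a median of 0.22 in liver and 0.18 in fat. It was smallest for SSR2 in both tissues, and largest for TMED3 in liver (1.39) and CALR in fat (0.50).

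Fasting moved the machinery of fat in both directions. Of the 41 genes, 8 rose and 10 fell at an adjusted p below 0.05 (limma, Benjamini-Hochberg over 23999 probe sets), which is 43.9%, against 34.2% of all genes (15.3% higher and 18.9% lower) and 48.9% of the genes above the median brightness. The share was therefore between that of all genes and that of the genes above the median brightness. The chaperone calnexin (CANX), the disulfide isomerases PDIA4 and PDIA6, the cargo receptor TMED2, the translocon partner SEC63 and both transcription factors rose. The docking receptor SRPRA, the particle subunits SRP9 and SRP14, the outer coat genes SEC13 and SEC31B and the cargo receptor TMED3 fell. The median change over the 41 genes was -0.03 on the log2 scale, against 0.01 for all genes. With arrays centred on their medians 4 of the 41 rose and 12 fell, and with quantile normalization 10 rose and 8 fell. Among all genes those scalings gave 9.46% higher and 22.8% lower, and 13.9% higher and 20.2% lower.

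**Figure D1:**
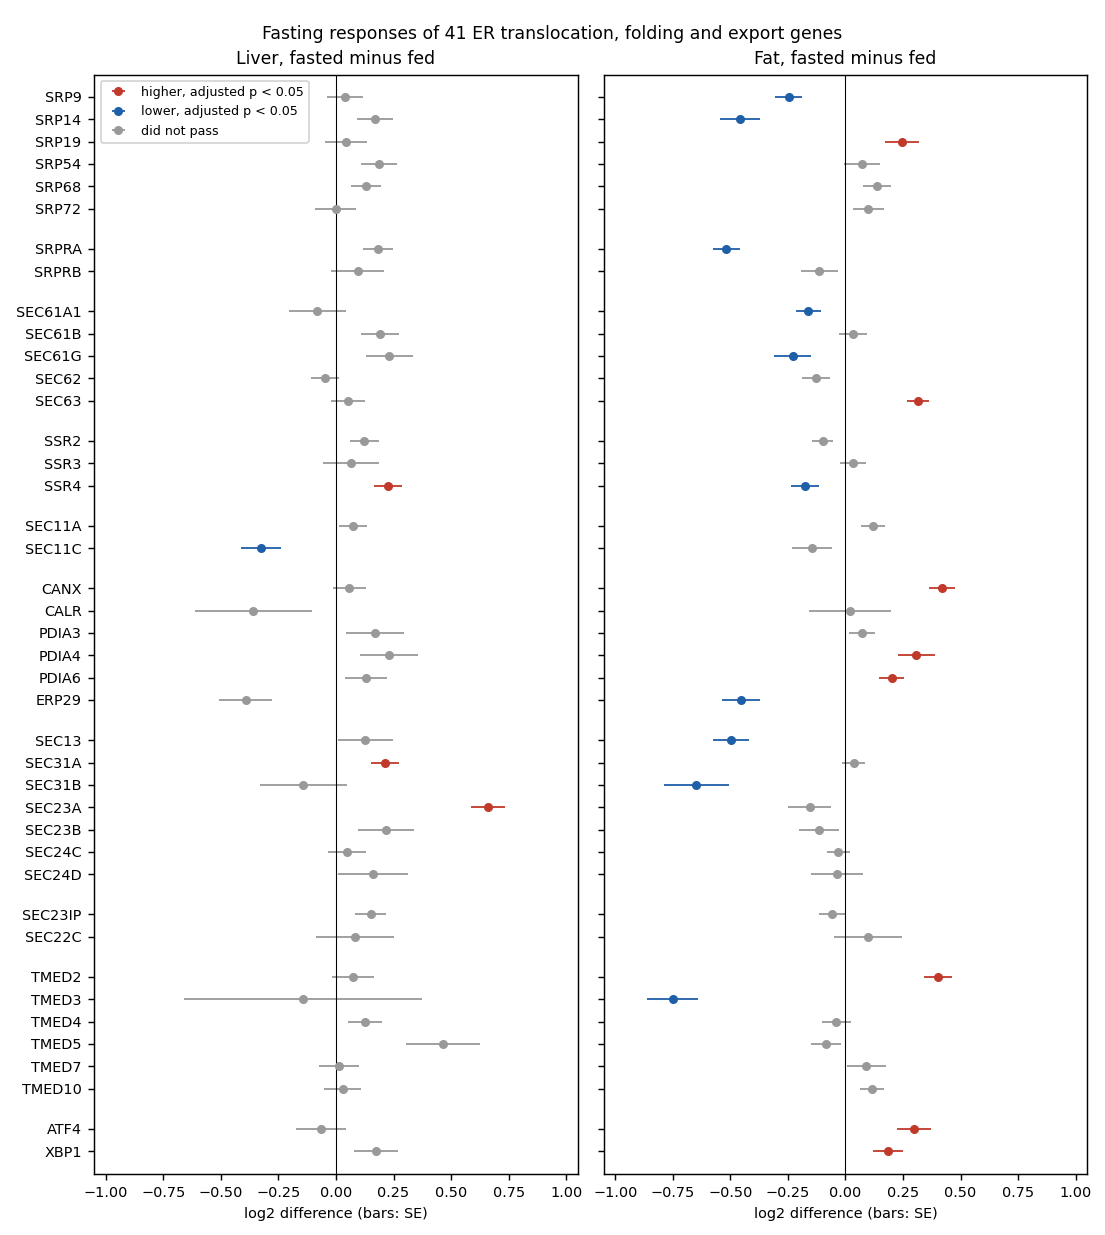
Log2 difference between fasted and fed gilts (x axis) for each of the 41 genes, grouped by role, in liver and fat; points are estimates from 12 fasted and 12 fed gilts, bars are 1 SE, and red and blue mark genes that passed as higher or lower. In fat 8 genes lie to the right and 10 to the left in colour, whereas in liver 4 genes are coloured and SEC23A is farthest to the right.

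Among the targeting genes of fat, SRPRA, the receptor subunit that binds the particle, changed with the smallest p. Its signal was 2382 to 3683 in fed gilts (median 3080) and 1793 to 2780 in fasted gilts (median 2091). The groups overlapped, but 9 of 12 fasted gilts lay below every fed gilt and all 12 lay below the fed median. The log2 difference was -0.52 ± 0.06 (SE, 12 against 12, limma adjusted p = 1.52e-06), and the second probe set of the gene gave -0.52. SRP14, which with SRP9 pauses translation while the ribosome is brought to the membrane, went from 1869 to 3372 (median 2602) to 1413 to 2502 (median 1881), a difference of -0.46 ± 0.09 (adjusted p = 0.000439). SRP9 went from 1319 to 1552 (median 1444) to 983.2 to 1512 (median 1204), with 10 of 12 fasted gilts below all fed gilts and a difference of -0.25 ± 0.06 (adjusted p = 0.00395). SRP19, needed to assemble the particle, differed the other way, from a fed median of 2442 to a fasted median of 2770 (0.25 ± 0.08, adjusted p = 0.0197). The groups of SRP19 overlapped, and its call was lost with median-centred arrays (0.16). SRP54, SRP68, SRP72 and the second receptor subunit SRPRB did not pass, with log2 differences of -0.11 to 0.14. The particle was thus mixed: of its 6 subunits 1 rose, 2 fell and 3 did not pass.

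At the channel, SEC63, which recruits the chaperone BiP to the luminal side, had signals of 2464 to 3037 (median 2706) in fed and 3019 to 3933 (median 3385) in fasted fat. All but 2 of the fasted gilts exceeded every fed gilt, the difference was 0.32 ± 0.05 (limma adjusted p = 4.55e-05), and the 2 dimmer probe sets gave 0.40 and 0.18. The pore subunit SEC61A1 and the small subunit SEC61G lay slightly lower in fasted fat, by -0.16 ± 0.05 (adjusted p = 0.0311) and -0.23 ± 0.08 (adjusted p = 0.0416). Both groups overlapped widely, as SEC61A1 read 1308 to 2160 fed and 1325 to 1797 fasted, and SEC61G read 3481 to 5112 and 3013 to 4880. SEC61B and SEC62, the latter a partner for chains that arrive after synthesis, did not pass (0.03 and -0.13). Of the translocon-associated proteins, which help chains enter the channel, SSR4 went from a median of 4864 to one of 4319 (-0.18 ± 0.06, adjusted p = 0.0345). SSR2 and SSR3 did not pass, although no fasted gilt exceeded the fed median of SSR2 (6806 against 7436 at the medians). Neither catalytic subunit of the signal peptidase passed, with 0.12 for SEC11A and -0.15 for SEC11C. The calls of SEC61A1, SEC61G and SSR4 were fragile: without the D298 fed replicate 4 fat array, which had the highest actin 3′ to 5′ ratio, they were -0.14 (adjusted p = 0.0655), -0.20 (0.0856) and -0.16 (0.0705). SEC61G was also lost without the D298 fasted replicate 3 array (-0.19, adjusted p = 0.0848), and its second, very dim probe set read 0.67 (adjusted p = 0.311). With quantile normalization SSR4 (-0.096, adjusted p = 0.261) and SEC61G (-0.15, adjusted p = 0.186) did not pass. Without the replicate block SEC61A1 (adjusted p = 0.0825) and SSR4 (0.0909) did not, nor did the second probe set of SEC61A1 (-0.34, adjusted p = 0.339).

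Of the folding genes, calnexin changed with the smallest p in fat. It is a membrane-bound lectin that holds glycoproteins until they are folded. Its signal was 5841 to 7520 (median 6713) in the fed gilts and 7230 to 10330 (median 8938) in the fasted gilts, and 11 of 12 fasted gilts exceeded all fed gilts. The difference was 0.42 ± 0.06 (limma adjusted p = 8.87e-06), and the 5 other probe sets of the gene gave 0.27 to 0.61. Calreticulin (CALR), the soluble lectin that works beside calnexin, did not follow: it read 252.3 to 1153 fed (median 369.8) and 306.3 to 969.1 fasted (median 415.1), a difference of 0.02 ± 0.18 (adjusted p = 0.958) with the largest SE of the 41 genes in fat. The disulfide isomerase PDIA4 went from 935 to 1510 (median 1137) to 1251 to 1630 (median 1442), with all 12 fasted gilts above the fed median (0.31 ± 0.08, adjusted p = 0.00658). Its second probe set gave 0.26 and did not pass. PDIA6 went from a median of 2745 to one of 3210 (0.20 ± 0.06, adjusted p = 0.0101), and its call was lost with median-centred arrays (0.12). PDIA3, the isomerase that binds calnexin and calreticulin, did not pass (0.07 ± 0.06). ERP29, a relative of the isomerases that lacks their active cysteines, went the opposite way, from 2248 to 4431 (median 3310) to 2033 to 2974 (median 2333), a difference of -0.45 ± 0.08 (adjusted p = 0.000302). No fasted gilt reached the fed median of ERP29, though the groups overlapped.

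The COPII coat genes that passed in fat were lower, and none was higher. SEC13, which forms the outer cage with SEC31 proteins, read 408 to 838.5 (median 583.3) in fed and 275.1 to 491.7 (median 419.2) in fasted gilts. All 12 fasted gilts lay below the fed median, and the difference was -0.50 ± 0.08 (limma adjusted p = 6.54e-05). SEC31B, another outer coat gene, read 300.4 to 524.3 (median 342.4) fed and 123 to 350.8 (median 244.9) fasted, with 11 of 12 fasted gilts below every fed gilt (-0.65 ± 0.14, adjusted p = 0.0017). SEC31A did not pass (0.04 ± 0.05), nor did the inner coat genes SEC23A, SEC23B, SEC24C and SEC24D (-0.16 to -0.03). The coat partner SEC23IP and the SNARE relative SEC22C did not pass either.

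In the p24 family, whose members load cargo and cycle between the endoplasmic reticulum and the Golgi, the fat responses of TMED2 and TMED3 were opposite. TMED2 read 5286 to 6341 (median 5674) fed and 6604 to 10320 (median 7166) fasted. Its fed and fasted groups did not overlap in fat, and the difference was 0.40 ± 0.06 (limma adjusted p = 3.6e-05). TMED3 read 346.8 to 582.1 (median 437.4) fed and 137.9 to 420.5 (median 274.1) fasted. It was the largest change of the 41 in fat, at -0.75 ± 0.11 (adjusted p = 3.65e-05), and 11 of 12 fasted gilts were below all fed gilts. The other 4 members, TMED4, TMED5, TMED7 and TMED10, did not pass (-0.08 to 0.11).

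ATF4, the factor made when translation is slowed by nutrient or folding stress, had more transcript in fasted fat. Its signal was 5856 to 7765 (median 6455) in fed and 5017 to 10720 (median 8182) in fasted gilts. In the fasted group 9 gilts exceeded all fed gilts and 1 lay below all of them. The difference was 0.30 ± 0.07 (limma adjusted p = 0.00466), and 0.21 with median-centred arrays, where it did not pass. The second, dim probe set of ATF4 gave 0.04 (adjusted p = 0.909). XBP1, the factor whose mRNA is spliced when folding stress is sensed, went from a median of 3945 to one of 4475 (0.18 ± 0.06, adjusted p = 0.0377). Its groups overlapped, and the call was lost without the D298 fed replicate 4 array (0.16, adjusted p = 0.0775), without the D298 fasted replicate 3 array (0.16, adjusted p = 0.0759) and with median-centring (0.10). The array signal reports transcript only, and the spliced form of XBP1 was not measured apart.

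**Figure D2:**
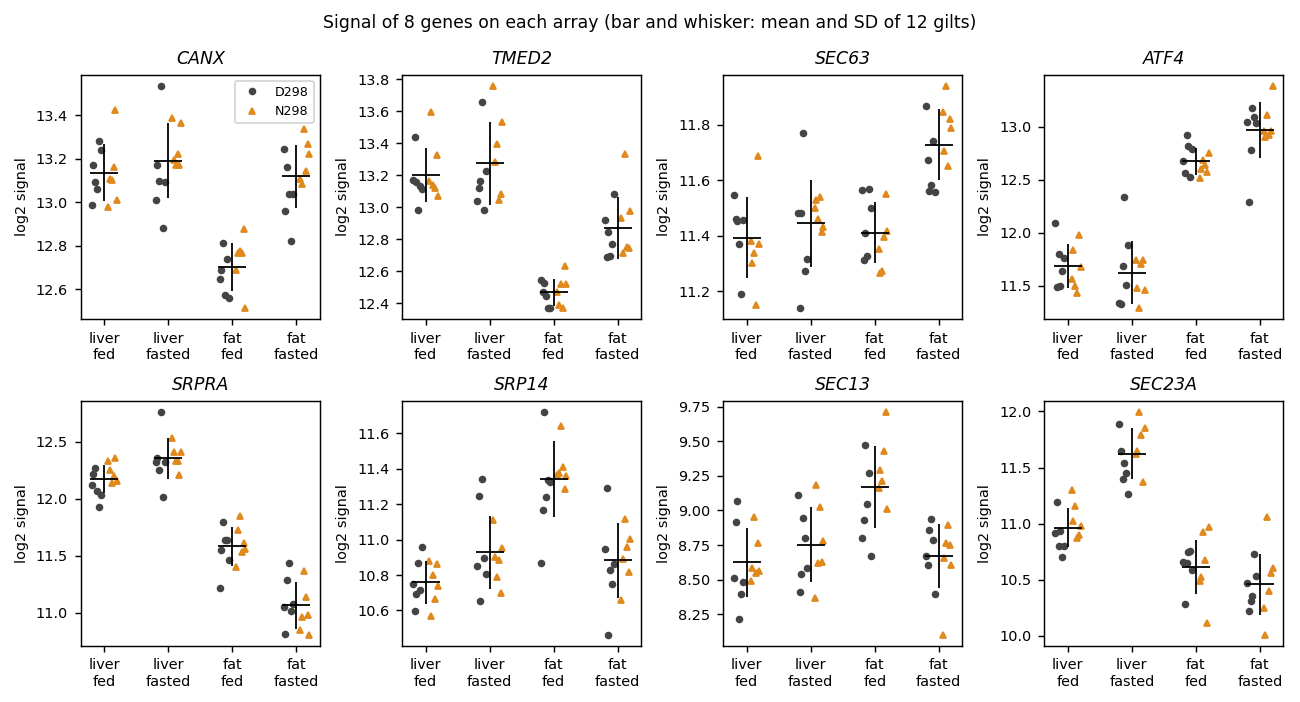
Log2 signal (y axis) of 8 genes on every array, by tissue and feeding state (x axis), with grey circles for D298 and orange triangles for N298 gilts; the bar and whisker are the mean and SD of 12 gilts, and each panel has its own y range. CANX, TMED2, SEC63 and ATF4 stand higher in fasted than in fed fat, SRPRA, SRP14 and SEC13 stand lower, and SEC23A stands higher in fasted liver.

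Other measures moved with feeding in fat. Of all genes 15.3% were higher and 18.9% lower in fasted fat. Of 9 endothelial markers 6 were higher there and none lower, with summed signals of 11340 to 17490 (median 13540) in fed and 15380 to 26040 (median 18350) in fasted gilts. Of 6 fibroblast markers 4 were lower and none higher, with sums of 34260 to 53710 (median 43290) and 24100 to 42050 (median 32090). The 3′ to 5′ ratio of the GAPDH control probe sets, which grows as RNA is degraded or copied short, had a median of 2.335 in fed and 3.543 in fasted fat, against 1.962 and 2.015 in liver. The actin ratio was 3.165 and 3.329 in fat, and 2.812 and 3.293 in liver. The part of these differences in the changes of the 41 genes was not tested.

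In liver 4 of the 41 genes passed after fasting (9.76%), 3 higher and 1 lower. The share lay between that of all genes (7.2%, with 4.09% higher and 3.1% lower) and that of the genes above the median brightness (11.3%). Of the 41 estimates 32 were above 0 (78.0%, against 51.1% of all genes and 59.0% of the bright ones), and their median was 0.09 against 0.04 for the bright genes. Without the D298 fasted replicate 4 array 25 were above 0 (61.0%, against 58.7% of the bright genes), with a median of 0.06. Of the 41 genes, none had fed and fasted liver groups without overlap, and the share of all genes is not given here. The lone lower gene was lost when arrays were centred on their medians, which left 3 higher and 0 lower.

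SEC23A, the inner coat subunit that switches off the GTPase SAR1, was the clear change in liver. Its signal was 1670 to 2514 (median 1945) in fed and 2465 to 4084 (median 3174) in fasted gilts. All but 1 of the fasted gilts exceeded every fed gilt. The difference was 0.66 ± 0.07 (SE, 12 against 12), or 1.58-fold, with a limma adjusted p of 5.44e-06, and the second probe set gave 0.89 (adjusted p = 2.11e-05). It passed within each genotype too, with 0.64 in D298 and 0.68 in N298 gilts. Its paralog SEC23B did not pass.

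The 3 other calls in liver were near the threshold. SSR4 went from 4438 to 5654 (median 5147) to 4873 to 7315 (median 5937), a difference of 0.23 ± 0.06 (limma adjusted p = 0.0393), and the outer coat gene SEC31A from 2787 to 3313 (median 3062) to 2952 to 4309 (median 3582), a difference of 0.21 ± 0.06 (adjusted p = 0.042). The second probe set of SEC31A gave 0.02, and the third and dimmest gave -0.38 (adjusted p = 0.326). SEC11C, a catalytic subunit of the signal peptidase, went from 5246 to 6418 (median 6082) to 3740 to 7191 (median 4526), with 9 of 12 fasted gilts below all fed gilts (-0.33 ± 0.09, adjusted p = 0.0328). Without the D298 fasted replicate 4 array SSR4 and SEC31A no longer passed (0.20 and 0.19, adjusted p = 0.0666 and 0.0705), so that 1 gene was higher and 2 were lower, the second being ERP29. Without the D298 fed replicate 4 array only SEC23A passed, and SSR4, SEC31A and SEC11C had adjusted p = 0.0717, 0.0796 and 0.0503.

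CANX, ATF4, XBP1 and CALR did not pass in liver. Calnexin read 8061 to 11000 (median 8807) in fed and 7548 to 11880 (median 9232) in fasted liver (0.06 ± 0.07, limma adjusted p = 0.76). ATF4 read 2769 to 4361 (median 3232) and 2503 to 5193 (median 3098), a difference of -0.06 ± 0.11 (adjusted p = 0.828). XBP1 had a fed median of 6562 and a fasted median of 7724, with all 12 fasted gilts above the fed median, and still did not pass (0.17 ± 0.10, adjusted p = 0.385). CALR had a difference of -0.36 ± 0.25 (adjusted p = 0.525). ERP29 (-0.39 ± 0.12, adjusted p = 0.0565) and TMED5 (0.46 ± 0.16, adjusted p = 0.112) had larger estimates than CALR and did not pass either.

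Whether the 2 tissues responded differently was tested directly, in a fit of all 48 arrays that treats each gilt as a random block. For 4 of the 41 genes the response of fat was above that of liver (9.76%, against 8.91% of all genes), and for 9 it was below (22.0%, against 15.1%). Of the genes above the median brightness 11.6% were above and 24.8% below, so that the shares of the 41 lay between those of all genes and of these brighter genes. Those above were CANX (0.36 ± 0.08, limma adjusted p = 0.000974), ATF4 (0.36 ± 0.13, 0.0435), TMED2 (0.33 ± 0.10, 0.0242) and SEC63 (0.26 ± 0.08, 0.0168). Those below were led by SEC23A (-0.82 ± 0.13, adjusted p = 4.34e-06), SRPRA (-0.70 ± 0.10, 5.39e-07), SRP14 (-0.63 ± 0.11, 2.57e-05) and SEC13 (-0.62 ± 0.14, 0.00147). For SEC23A the difference came with a rise in liver and a value of -0.16 in fat that did not pass, whereas for SRPRA, SRP14 and SEC13 it came with a fall in fat and values of 0.18, 0.17 and 0.13 in liver that did not pass. TMED5, SEC61G, SSR4, SRP9 and SSR2 completed the group, from -0.55 to -0.22. With quantile normalization SSR2 (-0.05, adjusted p = 0.677) and TMED5 (-0.44, adjusted p = 0.0775) did not pass, and by its second probe set SRPRA (-0.51, adjusted p = 0.19) did not. SSR4 was the one gene that passed in both tissues, higher in liver and lower in fat.

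The genes above 0 in that comparison also depended on the scale. Centring each array on its median moves the median of all probe sets in this comparison by -0.14, and quantile normalization by -0.11. With median-centring none of the 41 genes responded more in fat and 13 responded less: CANX was then 0.22 (adjusted p = 0.117), ATF4 0.22 (0.301), TMED2 0.19 (0.327) and SEC63 0.12 (0.412). With quantile normalization those 4 genes passed, at 0.56, 0.57, 0.53 and 0.39. SEC23A, SRPRA, SRP14 and SEC13 were below 0 and passed under both scalings. ATF4 was also lost without the gilt block (adjusted p = 0.0618) and by its second probe set (0.14, adjusted p = 0.752). It did not pass either without liver N298 fed replicate 5 and fat D298 fasted replicate 3, the arrays of lowest correlation with their group (0.34, adjusted p = 0.0669). TMED5 was lost without the liver D298 fasted replicate 4 array (-0.44, adjusted p = 0.0547). Leaving out a replicate number also cost calls: TMED2 without 2, 3, 5 or 6, and SEC63 without 1, 2, 3 or 6. The same held for ATF4 without 1, 3, 5 or 6, TMED5 without 2, 3, 4 or 6, and SRP9 without 1, 2, 3 or 4. SSR2 was lost without 1 or 6 and SEC61G without 4, while CANX, SEC23A, SRPRA, SRP14, SEC13 and SSR4 passed each time.

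The MC4R genotype gave no call. Comparing N298 with D298 gilts over both feeding states, 0 of the 41 genes passed in liver or fat (limma), as did 0% of all genes in both tissues. At an unadjusted p below 0.05 there was 1 of the 41 in liver (2.44%, against 5.07% of all genes) and 3 in fat (7.32%, against 5.35%), near the background, and the smallest adjusted p was 0.951 and 0.825. These differences had an SE of 0.06 to 0.52 (liver) and 0.04 to 0.18 (fat). In fat the 3 genes with the smallest p were SSR4 (0.17 ± 0.06), CALR (0.43 ± 0.18) and XBP1 (-0.15 ± 0.06), and in liver SEC23A (0.16 ± 0.07), CALR (0.45 ± 0.25) and SEC24C (-0.14 ± 0.08). The high CALR signals came from N298 gilts in both tissues: in fat the highest D298 signal was 477.7 and the highest N298 signal 1153, while the medians of the 4 groups were 352.1 to 440.3.

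The test of whether the fasting response differed by genotype also gave 0 calls among the 41 and 0% among all genes in each tissue. At an unadjusted p below 0.05 there were 1 of the 41 in liver (2.44%, against 6.62% of all genes) and 4 in fat (9.76%, against 6.73%), with smallest adjusted p of 0.85 and 0.814. Here the SE was 0.12 to 1.04 (liver) and 0.09 to 0.36 (fat), and differences well above 1 SE could escape detection in any of the genes. In fat the 3 smallest p belonged to PDIA3 (-0.32 ± 0.11), TMED3 (-0.58 ± 0.22) and SEC24C (-0.24 ± 0.10). PDIA3 read 0.23 ± 0.08 after fasting in D298 and -0.09 ± 0.08 in N298 gilts, neither of which passed. TMED3 was -0.46 ± 0.16 in D298 gilts, where it did not pass (adjusted p = 0.0608), and -1.04 ± 0.16 in N298 gilts, where it did (0.000115). The median signal of TMED3 went from 401.5 to 307.2 in D298 and from 453.8 to 243.4 in N298 gilts. In liver the 3 smallest were SRP68 (-0.32 ± 0.13), SEC61A1 (0.46 ± 0.25) and SEC31B (-0.70 ± 0.38).

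**Figure D3:**
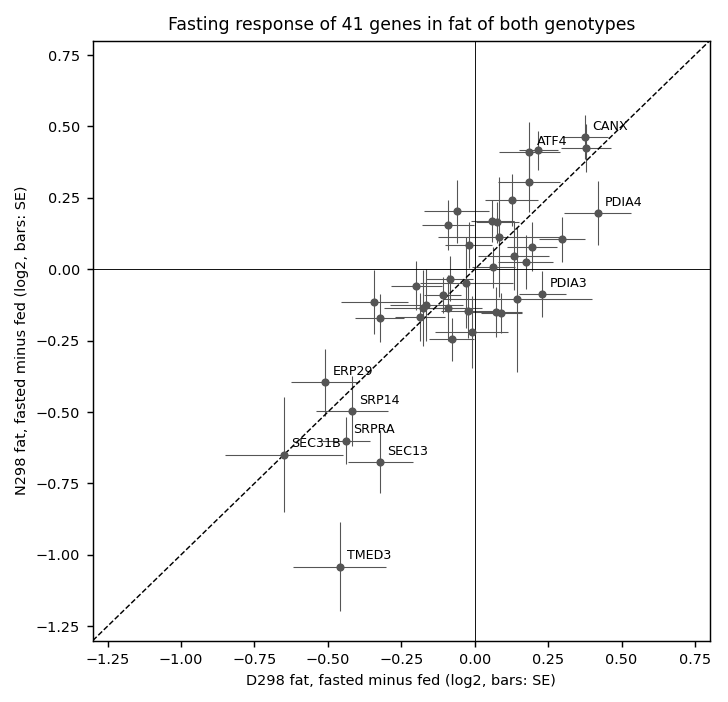
Fasting response of the 41 genes in fat of D298 gilts (x axis) and N298 gilts (y axis), as log2 difference between 6 fasted and 6 fed gilts with bars of 1 SE; the dashed line marks equal responses. TMED3 lies at -0.46 and -1.04 and PDIA3 at 0.23 and -0.09, and no distance from the line passed the interaction test.

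Of the 41 genes 35 differed between fed liver and fed fat (85.4%), against 72.8% of all genes. Among the genes above the median brightness the share was 82.4%, near that of the 41. More of the 41 were lower than higher in fat. In fat 9 were higher (22.0%), against 43.8% of all genes and 49.3% of those above the median brightness. The other 26 were lower (63.4%), against 29% of all genes and 33.1% of those above the median brightness. The other two scalings gave 12 higher and 22 lower (quantile) and 5 higher and 30 lower (median-centred), where they moved the median of all probe sets by -0.17 and -0.29. The median of the 41 was -0.35, against 0.17 for all genes. For 19 of the 41 the fed liver and fed fat groups did not overlap, and the share of all genes without overlap is not given here.

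All 6 folding genes were lower in fat. PDIA4 read 4263 to 8149 (median 6371) in liver and 935 to 1510 (median 1137) in fat, a difference of -2.45 ± 0.10 (limma adjusted p = 1.64e-26), or 5.45-fold. PDIA6 read 9316 to 14930 (median 11360) and 2484 to 3376 (median 2745), or 4.10-fold lower (adjusted p = 2.26e-29), and PDIA3 went from a median of 7941 to one of 2614, or 3.04-fold lower (adjusted p = 1.04e-19). None of these 3 isomerases overlapped between the tissues. In fasted gilts the differences were -2.37 for PDIA4, -1.97 for PDIA6 and -1.70 for PDIA3. CANX was -0.43 ± 0.06, CALR -0.79 ± 0.21 and ERP29 -0.34 ± 0.10. With quantile normalization CANX (-0.01, adjusted p = 0.872) and ERP29 (-0.15, adjusted p = 0.19) no longer passed. In fasted gilts CANX differed by -0.07 ± 0.06 between the tissues and did not pass (adjusted p = 0.266).

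The targeting and channel genes were mostly lower in fat as well. SEC11C, 5246 to 6418 in liver and 1113 to 1891 in fat, was 4.02-fold lower without overlap (limma adjusted p = 3.06e-26), whereas its sister subunit SEC11A was 1.23-fold lower. SSR3 (-0.89), SEC61A1 (-0.84), SEC61B (-0.76) and the particle's GTPase SRP54 (-0.77) were lower without overlap. SSR4 and SEC63 did not pass, and SSR2 (-0.28) turned to 0.15 with quantile normalization (adjusted p = 0.0034). SRP14 (0.58), SRP68 (0.41) and SRP19 (0.26) were higher in fat, against lower values for SRP9, SRP54 and SRP72, although SRP68 did not pass and SRP19 read -0.03 with median-centring. In fasted gilts the tissue difference of SRP14 was -0.04 and did not pass.

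The exit genes differed in both directions. TMED3 was the extreme, with signals of 3.208 to 84.51 (median 26.62) in fed liver and 346.8 to 582.1 (median 437.4) in fed fat. Its difference was 4.10 ± 0.38 (limma adjusted p = 1.77e-13) and fell to 2.92 with 32 added to every signal, because the liver signals were dim. SEC31B, 59.09 to 187.8 in liver and 300.4 to 524.3 in fat, was 3.21-fold higher (adjusted p = 6.95e-13), also without overlap. SEC13 (0.54), SEC22C (0.31) and SEC23IP (0.23) were higher in fat, but SEC22C did not pass under either scaling, and SEC23IP did not pass with quantile normalization and read -0.06 with median-centring. TMED7 (-1.34), TMED2 (-0.73) and TMED4 (-0.67) were lower without overlap. TMED10 did not pass by its brightest probe set (-0.14) although its second gave -1.40. Of the transcription factors, ATF4 was higher in fat (median 6455 against 3232, 0.98 ± 0.09, adjusted p = 1.92e-13) and XBP1 lower (median 3945 against 6562, -0.84 ± 0.08, adjusted p = 2.16e-13). A second, dim probe set of ATF4 read -0.02.

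**Figure D4:**
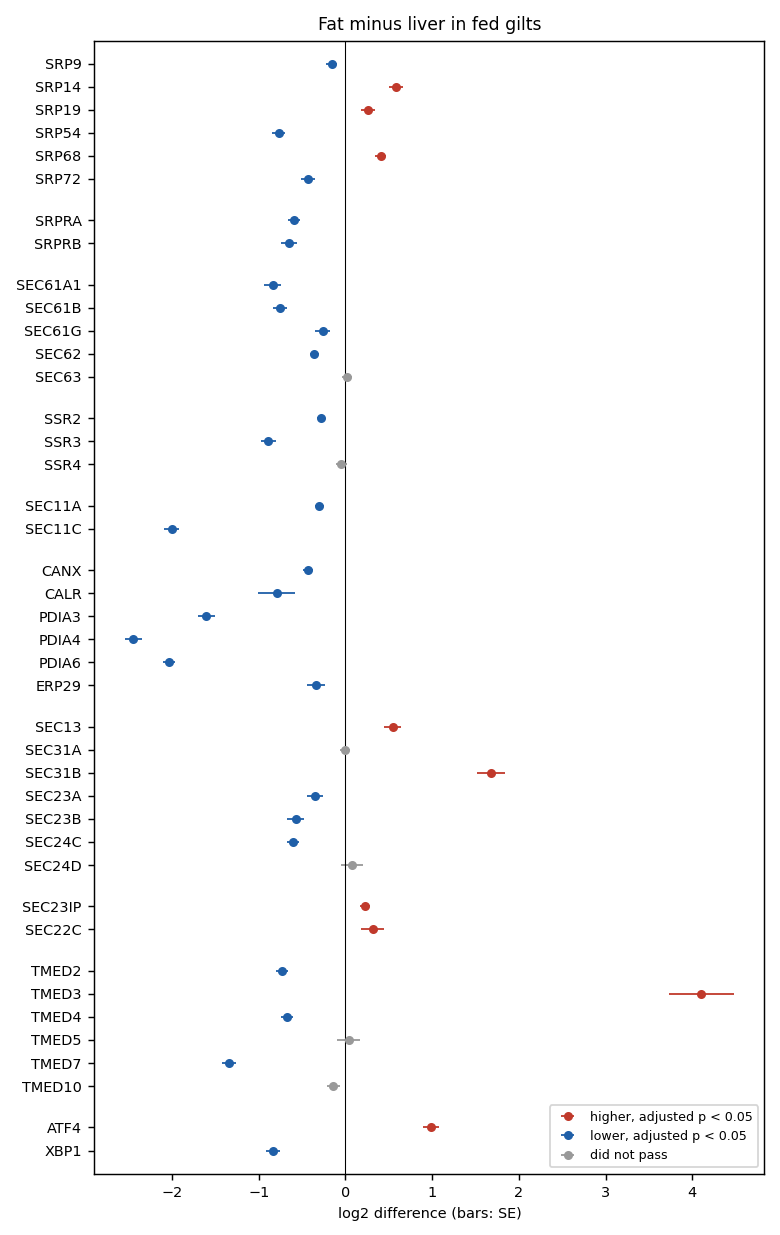
Log2 difference between fat and liver of 12 fed gilts (x axis) for the 41 genes by role, with bars of 1 SE; red and blue mark genes that passed as higher or lower in fat. All 6 folding genes lie to the left, from -2.45 for PDIA4 to -0.34 for ERP29, and TMED3 at 4.10 lies far to the right.

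Other genes of the same pathway were taken as 7 lists, without the 41. Of 169 genes listed 110 were measured. In fasted fat 8 rose and 41 fell (44.5%, against 34.2% of all genes and 48.9% of the genes above the median brightness), with a median of -0.09. In fasted liver 15 rose and 1 fell (14.5%, against 7.2% and 11.3%), with a median of 0.11. Of the genes above the median brightness 20.4% rose and 28.5% fell in fat, and 6.8% rose and 4.52% fell in liver. The counts by list that follow were not tested against these shares. All counts of these lists come from the main fit. They are not given without the liver D298 fasted replicate 4 array or under the other scalings. The calls of these other genes were mostly lower in fat and, with 1 exception (PSAT1), higher in liver.

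Export and retrieval genes accounted for the largest number: of 29 measured, 15 fell and 3 rose in fat, and 6 rose and none fell in liver. Named by smallest p, the SNARE YKT6 (-0.61) and the cargo lectin LMAN2 (-0.44) fell in fat, and the KDEL receptor KDELR1 (0.27) and BCAP29 (0.21) rose. In liver TFG, which organises exit sites (0.70), and the KDEL receptor KDELR3 (0.85) rose.

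Of 13 chaperones 4 fell in fat, among them the collagen chaperone SERPINH1 (-0.63) and FKBP11 (-0.29), and none rose, while in liver FKBP11 rose (0.60) alone. Of 10 redox enzymes 4 fell in fat, led by PRDX4 (-0.39) and SELENOM (-0.57), and TXNDC12 rose in liver (0.53). Of 20 glycosylation genes 6 fell in fat, led by the oligosaccharyltransferase subunit DAD1 (-0.43) and GMPPB (-1.32), which makes GDP-mannose, and the mannosyltransferase ALG9 rose (0.99). The phosphomannomutase PMM1 rose in liver (2.21). SERPINH1 serves collagen, and its fall stands beside the lower fibroblast markers given above, whose part in it was not tested.

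Of 15 signal peptidase and translocon partners 4 rose in fat, led by CAMLG (0.41) and TRAM1 (0.24), and 4 fell, led by RRBP1 (-0.61) and the peptidase subunit SPCS1 (-0.34). In liver 3 rose, led by TRAM2 (0.48), and TRAM1 rose there too (0.23). Of 9 genes of degradation from the endoplasmic reticulum 4 fell in fat, led by DERL1 (-0.62) and UFD1 (-0.44), and EDEM2 rose in liver (0.33). Of 14 stress response genes 4 fell in fat and none rose. They were led by CTH, which makes cysteine (-1.09), and PHGDH, the entry enzyme of serine synthesis (-1.18). Both are known as targets of ATF4, whose own transcript rose there by its brightest probe set, a call lost with median-centring. Other genes of the list did not pass in fat, among them PSAT1 (-0.01), DDIT3 (0.16) and ATF3 (0.29). In liver CTH (0.43) and ATF5 (1.06) rose and PSAT1, also of serine synthesis, fell (-0.29). All genes of these lists said to rise or fall passed at a limma adjusted p below 0.05.

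**Figure D5:**
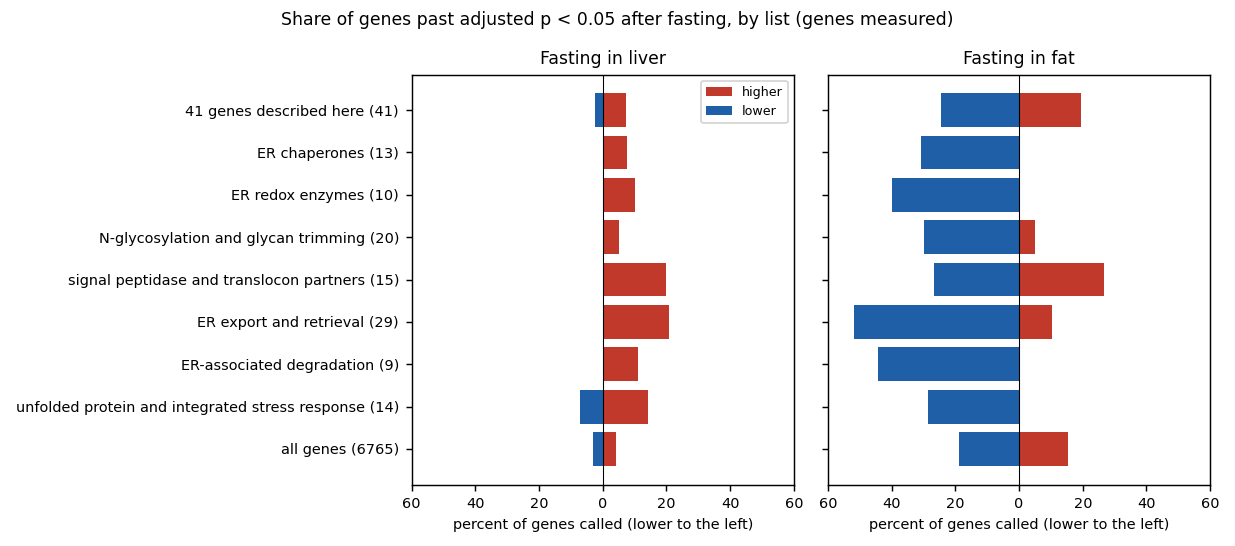
Percent of the measured genes of each list that passed after fasting (x axis), with higher genes to the right in red and lower genes to the left in blue, for liver and fat; the number measured stands in brackets. In fat the lists of other pathway genes lie mainly to the left and the 41 genes on both sides, and the bar of all genes shows 15.3% higher and 18.9% lower.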

How the data were processed

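Values were made with MAS5 and the affy package, per the submitters' processing notes, which give no versions. What the authors deposited is an intensity on a linear scale for each probe set, already brought to a common level: leaving out the lowest and highest 2% of values, the mean was 500.1 to 500.2 on every array. Log2 was taken with nothing added. Of 24123 probe sets, 124 controls were left out and 23999 tested without a filter on dim signal. The annotation gave 1 symbol for 10069 of these, several for 198 and none for 13732. No genome was used, so positions are not printed.

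In each tissue limma 3.58.1 (R 4.3.3; lmFit, eBayes with trend) fitted the 4 groups of genotype and feeding with a block term of 6 levels for the replicate number, as the labels describe a block design without saying that this number is the block. Genotype is N298 minus D298 over both feeding states. Tissues were compared over 48 arrays, the gilt being a random block (correlation 0.0841). The labels do not name the gilts: liver and fat were joined by genotype, feeding and replicate number, and residuals of the pairs so joined correlated weakly (median 0.038), with 13 of 24 liver arrays closest to their own fat array. Tests were 2-sided, with Benjamini-Hochberg adjustment over the probe sets tested.

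The members and the lists were chosen with earlier results of these data known. Genes named are, for each comparison, up to 12 passing members per direction by smallest p, or the 3 smallest where fewer than 3 passed, with CANX, CALR, ATF4 and XBP1 throughout, and up to 2 genes per direction of each other list. Further genes were named after their values were seen. Alternatives were no replicate block within a tissue, and over both tissues no gilt block or a replicate block in its place. Others were quantile normalization, median-centring, eBayes without trend, brighter probe sets, array weights, 32 added before log2, the second probe set, and leaving out each replicate number. Fits without single arrays were added after seeing the data. Scripts were tested on simulated data.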

Additional observations from a re-analysis of the deposited data

Results flagged for a closer look

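For 13 of the 41 genes the fasting responses of fat and liver differed in the direct test (limma, gilt as a random block; fat minus liver, log2). The difference was above 0 for CANX (0.36), ATF4 (0.36), TMED2 (0.33) and SEC63 (0.26). It was below 0 for SEC23A (-0.82), SRPRA (-0.70), SRP14 (-0.63), SEC13 (-0.62), TMED5 (-0.55), SEC61G (-0.46), SSR4 (-0.40), SRP9 (-0.29) and SSR2 (-0.22). Several of these calls were lost in other fits, as given above.

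The 41 genes and their mean were each examined in 8 groups, 336 cases in all. A gilt far from the other 5 of its group was found in 23 of these. For independent cases chance alone gives about 1 in 20. These cases share arrays and are not independent, so that rate is a rough guide. The liver array of D298 fasted replicate 4 gave 6 of them, all high: the mean log2 signal of the 41 genes (11.54), SRP19 (3316, others 1644 to 2013), SRPRB (1183, others 459.8 to 640), SEC23B (2060, others 835.3 to 1078), TMED2 (12940, others 8079 to 9587) and TMED7 (6012, others 3036 to 3679). In N298 fed liver SRP9 (1924) and SEC24D (543) were high in replicate 5. In N298 fasted liver SRP54 was high in replicate 3 (2395), SSR3 in replicate 1 (7283), SEC24C in replicate 2 (1765) and CALR in replicate 5 (2028, others 318 to 578.9). In D298 fed liver TMED5 was high in replicate 1 (3163) and TMED3 low in replicate 3 (3.208, others 24.42 to 64.63).

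In fat of N298 fed gilts SRP14 was high in replicate 3 (3192), SEC62 high in replicate 4 (3875) and SRPRB low in replicate 6 (304). In D298 fed fat SRPRB was high in replicate 5 (455.7), SEC23A low in replicate 2 (1247) and SEC23B low in replicate 1 (436.3). In fasted fat SRP72 was high in D298 replicate 3 (1698), PDIA6 low in D298 replicate 4 (2665) and SEC13 low in N298 replicate 1 (275.1).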

How the results depend on the processing

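Leaving out each replicate number in turn gave, for higher and lower genes of the 41, 1 to 2 and 0 to 1 in fasted liver (3 and 1 with all gilts), 5 to 10 and 7 to 9 in fasted fat (8 and 10), 1 to 4 and 6 to 10 for the response of fat minus liver (4 and 9), and 8 to 9 and 24 to 26 for fed fat minus liver (9 and 26). In fasted liver 1 gene was higher and 0 lower without trend in eBayes and without D298 fed replicate 4, 1 higher and 2 lower without D298 fasted replicate 4, 2 lower with brighter probe sets only or with array weights, and 0 lower with median-centring. Median-centring also left 4 higher in fasted fat, 0 higher for the response and 5 higher for fed fat minus liver. The sign turned for SEC61G by its second probe set (0.67 in fasted fat, 1.02 for the response, 0.39 for fed fat minus liver) and, for fed fat minus liver, for ATF4 by its second probe set (-0.024), SRP19 and SEC23IP with median-centring (-0.032 and -0.061) and SSR2 with quantile normalization (0.15). Genotype and interaction gave 0 calls in every fit run.

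Whether replicate numbers pair the gilts was checked on deviations from group means: same-numbered arrays correlated with a median of 0.06 in liver and 0.06 in fat, and 10 and 16 of 36 pairs exceeded 0.1, so that pairing by number was not established. Without the replicate block the counts were 3 and 1 in fasted liver and 8 and 8 in fasted fat. The fit of both tissues had no replicate block, and without its gilt block the counts were 3 and 9 for the response, and 9 and 26 for fed fat minus liver. Of the arrays, 2 of 24 in liver and 10 of 24 in fat correlated best with an array of their own number. Some such matches arise without any pairing, and their expected number is not given here. These counts come from the data and not from the design. Dim probe sets, such as TMED3 in liver, limit the folds given.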
